A study of Arabidopsis thaliana with 4 samples.

Results

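GIGANTEA (GI, locus AT1G22770) and CYCLING DOF FACTOR 5 (CDF5, locus AT1G69570) act in the photoperiod pathway of Arabidopsis thaliana. They were taken as the genes whose own probe sets read GI and CDF5, which gave 2 genes of the 13355 that have a probe set assigned to them alone on the array. Each was read by 1 probe set, 264211_at for GI and 259834_at for CDF5. Signal was measured on GeneChip arrays of RNA from above-ground tissue, 2 arrays of lwd1lwd2 double mutants and 2 of wild-type plants, described as biological replicates. All plants were 31 days old when collected, 5 to 9 h after lights-on, and each day of growth had 12 h of light followed by 12 h without. The mutant carries lesions in LWD1 and LWD2, which encode related WD-repeat proteins of the circadian clock (the sources used here do not give the alleles, the accession or the number of plants pooled per array). The 2 disrupted genes were not analysed here, so the genotype labels were not checked against them.

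GI is a large plant-specific protein whose transcript is under clock control and accumulates towards the end of the light period. It binds the blue-light receptor and F-box protein FKF1, and the complex marks CDF proteins for breakdown in the afternoon. CDF proteins are DOF-type transcription factors, made mainly in the morning, that repress CONSTANS (CO) and FLOWERING LOCUS T (FT), the gene of the mobile flowering signal. GI and CDF5 therefore stand on opposite sides of the step that sets CO level in long days.

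GI rose in the double mutant. Its signal was 1689 and 1551 on the lwd1lwd2 arrays, against 683 and 797 on the wild-type arrays. Both mutant arrays lay above both wild-type arrays, and the gap of 754 between the genotypes exceeded the gap of 139 between the mutant replicates and of 114 between the wild-type replicates. The mean signal was 1620 ± 98.2 in lwd1lwd2 and 740 ± 80.6 in wild type (SD, n = 2 each), a ratio of 2.19. In a whole-tissue extract, a change in RNA per cell and a change in the number of cells that make the transcript cannot be told apart.

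CDF5 gave a lower mean signal in the mutant, but the difference did not pass the test. Its signal was 88.1 and 44.3 on the lwd1lwd2 arrays, against 129 and 158 on the wild-type arrays. The genotypes did not overlap, yet the gap of 41.1 between them was smaller than the gap of 43.8 between the mutant replicates. The mean was 66.2 ± 31.0 in lwd1lwd2 and 144 ± 20.4 in wild type (SD, n = 2 each), which put wild type 2.17 times above the mutant. The plot of signal by array shows the 4 values of each gene.

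**Figure D1:**
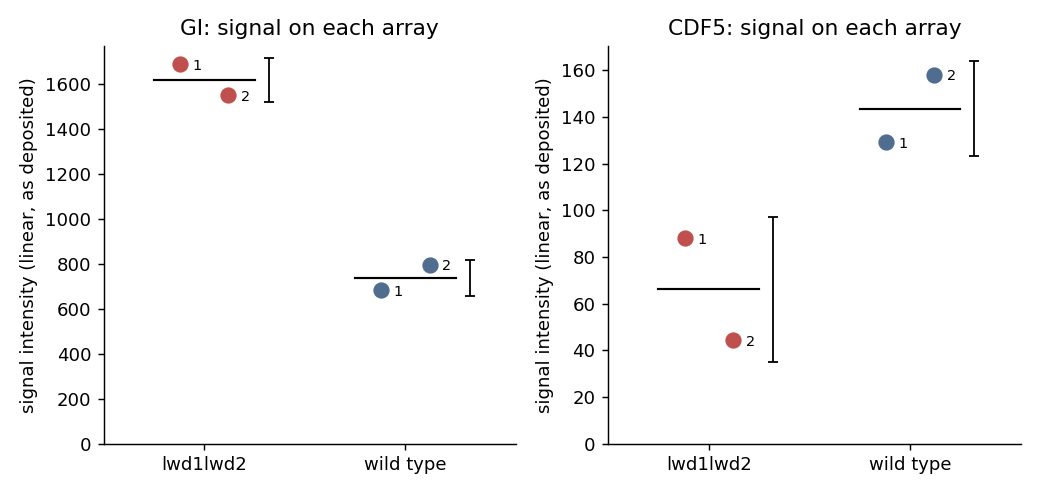
Signal intensity of GI and CDF5 on each array (linear, as deposited; numbers mark the replicate, horizontal lines the mean and bars the SD, n = 2 per genotype). The GI signals of 1689 and 1551 in lwd1lwd2 stand well clear of 683 and 797 in wild type, whereas the 2 mutant values of CDF5, 88.1 and 44.3, lie further apart than the genotypes do.

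The differences were tested with limma on log2(signal + 16), fitted to 13647 probe sets and adjusted by Benjamini-Hochberg over all of them. GI had a log2 difference of 1.12 ± 0.18 (SE), with a 95% interval of 0.71 to 1.52 and an adjusted p of 0.0060 (limma), which is a 2.17-fold rise on this scale. It was higher on 2 of 2 mutant arrays. Of all tested probe sets, 2.73% passed as higher in the mutant. CDF5 had a log2 difference of −1.01 ± 0.33 (SE), with a 95% interval of −1.74 to −0.27, an unadjusted p of 0.0117 and an adjusted p of 0.115 (limma), and 2.84% of probe sets passed as lower. The interval of CDF5 runs from a deficit larger than the GI rise down to a slight one. An exact two-sided permutation test of 2 arrays against 2 cannot go below p = 0.333, the value that both genes reached, so the call on GI rests on the spread that limma borrows from other probe sets.

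No overlap between the genotypes is common on these arrays. It was found with a higher mutant signal for 28.9% of tested probe sets and with a lower one for 22.6%, so the separation of GI and of CDF5 says little alone. Separated genotypes together with a 2-fold or larger difference were rarer, at 2.45% higher and 1.93% lower, and both genes met this size rule. CDF5 met it narrowly, at 2.01-fold. With each array centred on its median GI no longer met it (log2 difference 0.99). CDF5 did not meet it with 64 added to the signal (log2 difference −0.69) or without lwd1lwd2 replicate 2 (−0.61) or wild-type replicate 2 (−0.87).

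In size, the 2 differences held similar places in the array-wide distribution. A rise at least as large as that of GI was seen for 260 probe sets, 1.91% of those tested, and 205 of these passed. A deficit at least as large as that of CDF5 was seen for 262, or 1.92%, and 231 of these passed. CDF5 thus belonged to the minority of probe sets with a deficit of that size that missed the threshold.

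**Figure D2:**
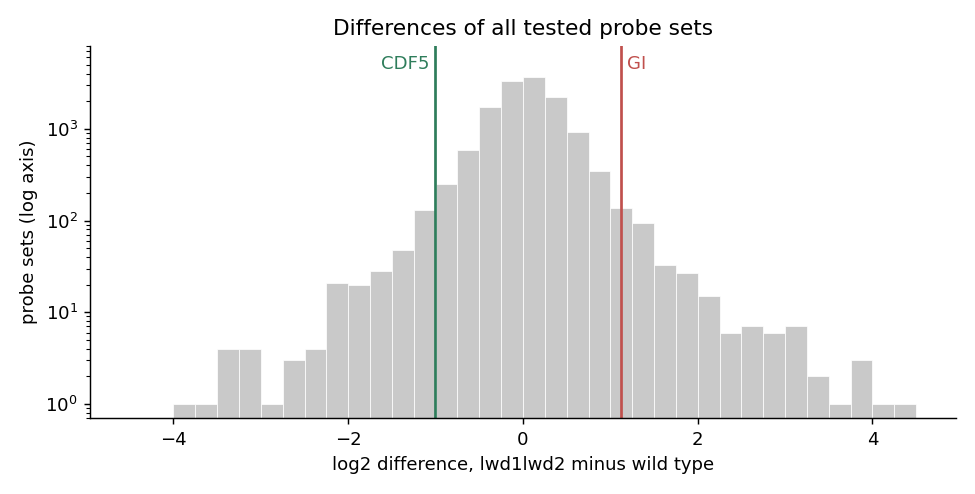
Number of tested probe sets (log axis) by log2 difference, lwd1lwd2 minus wild type, in steps of 0.25, with vertical lines at GI (1.12) and CDF5 (−1.01). Both genes lie in the shoulders of the distribution, each with about 260 probe sets at least as far out on its side.

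The replicates differed in how closely they agreed for the 2 genes. On the log2 scale, GI stood at 10.74 and 10.61 in lwd1lwd2, against 9.45 and 9.67 in wild type. Its mutant gap of 0.12 was below the median gap of 0.19 among the 1000 tested probe sets of most similar mean level, and its wild-type gap of 0.22 was close to their median of 0.21. CDF5 stood at 6.70 and 5.91 in lwd1lwd2, against 7.18 and 7.44 in wild type. Its mutant gap of 0.79 exceeded that of 92.1% of the 1000 tested probe sets of most similar mean level, whose median was 0.29. Its wild-type gap of 0.26 was near their median of 0.29. They were matched on the mean over all arrays, and probe sets with a mean below 6.75 were not among them. The mean of CDF5 in lwd1lwd2 was 6.31, so how unusual its mutant gap is among probe sets that dim was not tested. Without lwd1lwd2 replicate 1 the CDF5 difference was −1.40 and passed (adjusted p = 0.0392, limma); without lwd1lwd2 replicate 2 it was −0.61 (adjusted p = 0.477, limma).

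CDF5 also lay at the dim end of what was tested. The dimmest 40% of probe sets by mean were not tested, which put the cutoff at a signal of about 91.5, and CDF5 exceeded that cutoff by 0.06 on the log2 scale. Both of its mutant signals were below the cutoff, so it was tested only through its wild-type level. GI lay 3.37 above the cutoff. The gene table places a locus for a long non-coding RNA, AT1G69572, wholly within CDF5; whether the CDF5 probe set also reads it was not tested. No other locus overlaps GI.

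Within each array, GI can be set against CDF5 as a difference of log2 values, whose size has no meaning between probe sets but whose shift between genotypes does. It was 4.03 and 4.70 in lwd1lwd2, against 2.27 and 2.22 in wild type. The wild-type arrays were nearly equal and the mutant arrays were both higher, with a shift of 2.12 between the genotype means. This shift joins the GI and CDF5 differences given above, the latter not passing, so it is no separate result. Its exact permutation p was 0.333, the lowest that 2 arrays against 2 allow. A scaling of a whole array cancels in the within-array difference, apart from the added 16.

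Of 87 genes of the photoperiod pathway and of the flowering pathways that meet it, listed by locus, 13 were named on the array, 8 were tested and 5 were too dim. GI rose, none fell, and the other 7 did not pass, against 2.73% higher and 2.84% lower over all tested probe sets. With 8 genes tested, GI among them by choice, these counts do not describe the pathway as a whole. Leaving out GI and CDF5, the 6 tested genes had log2 differences from −0.12 to 0.57 with a median of 0.11, against a median of 0.05 over all tested probe sets. FKF1, CO, FT and the phytochrome and cryptochrome photoreceptors were not analysed here.

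Among the proteins that work with GI, SPINDLY (SPY) was the tested one. SPY is an O-fucosyltransferase that binds GI and restrains gibberellin signalling. Its signal was 462 and 431 in lwd1lwd2, against 337 and 468 in wild type, which overlap, and its log2 difference was 0.16 ± 0.22 (SE).

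Of 8 loci listed for the CDF family, 4 were named on the array, CDF5 and 3 relatives that were too dim to test; CDF1, CDF2 and CDF3 were not analysed here. CDF4 (AT2G34140) had 50.9 and 43.6 in lwd1lwd2, against 36.8 and 8.33 in wild type. COG1 (AT1G29160), a DOF repressor of phytochrome responses, had 110 and 108 in lwd1lwd2, against 57.2 and 48.3 in wild type. CDF6 (AT1G26790) had 3.51 and 15.98 in lwd1lwd2, against 1.51 and 7.17 in wild type. The mutant arrays thus read higher for CDF4 and COG1 and lower for CDF5, while those of CDF6 overlapped wild type. CDF5 did not pass and the 3 dim genes have no test, so a contrast within the family was not tested. Separation with a higher mutant signal was found for 28.9% of tested probe sets. Its share among probe sets too dim to test, such as CDF4 and COG1, was not counted.

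Of the genes that act on CO or beside it, the tested ones were the AP2-type repressors of FT, SCHLAFMUTZE (SMZ) and SCHNARCHZAPFEN (SNZ). SMZ had 100 and 142 in lwd1lwd2, against 94.7 and 97.0 in wild type, without overlap and with a log2 difference of 0.28 ± 0.29 (SE). SNZ had 219 and 175 in lwd1lwd2, against 131 and 263 in wild type, so its wild-type arrays enclosed the mutant ones (0.07 ± 0.31). DAY NEUTRAL FLOWERING (DNF), an E3 ligase that represses CO early in the day, was too dim to test, with 31.0 and 42.4 in lwd1lwd2 against 20.9 and 4.33 in wild type.

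Among floral integrators and the autonomous pathway, which acts beside the photoperiod pathway and lowers the flowering repressor FLC, 3 genes were tested. FY, a polyadenylation factor of the autonomous pathway, had the largest difference among the 6 tested genes other than GI and CDF5. Its signal was 310 and 377 in lwd1lwd2, against 225 and 226 in wild type. The genotypes did not overlap, but the log2 difference of 0.57 ± 0.22 (SE) did not pass (adjusted p = 0.169, limma). AGL24, a MADS-box promoter of flowering, had 381 and 312 in lwd1lwd2 against 456 and 310 in wild type, and LD, a homeodomain protein of the autonomous pathway, had 274 and 271 against 235 and 308. Both overlapped between genotypes, at log2 differences of −0.12 and 0.01. FD, the bZIP partner of FT at the shoot tip, was too dim to test, with 15.8 and 45.7 in lwd1lwd2 against 61.4 and 23.0 in wild type.

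**Figure D3:**
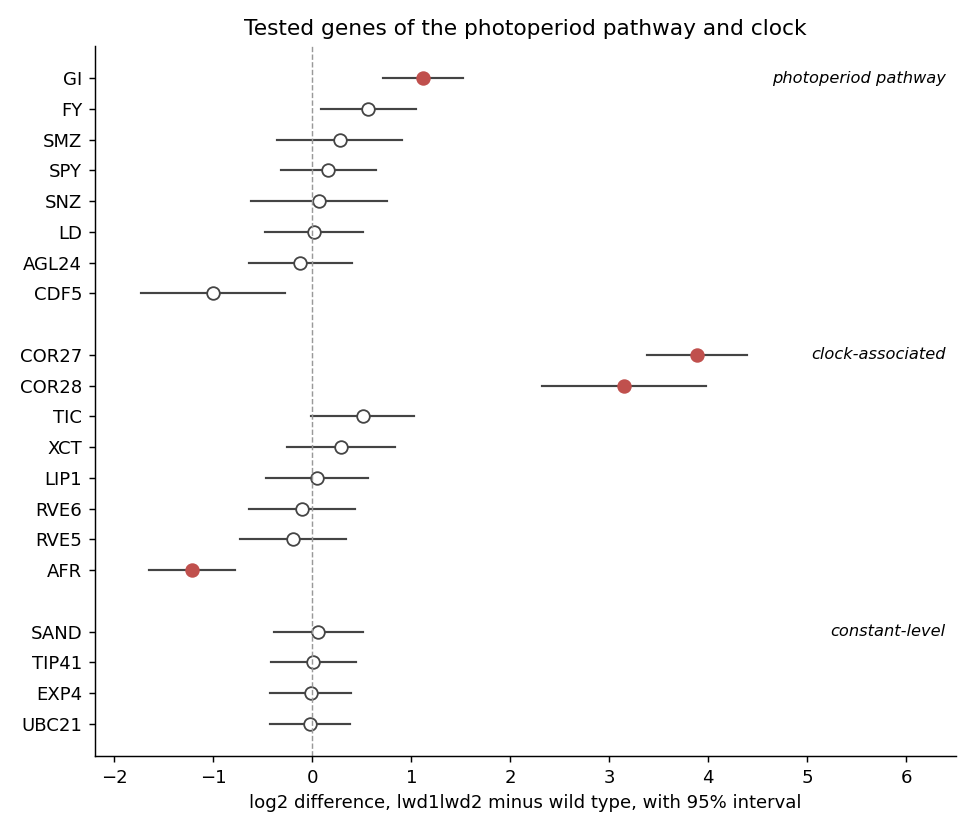
Log2 difference, lwd1lwd2 minus wild type, with its 95% interval (limma, n = 2 per genotype), for every tested gene listed with the photoperiod pathway, of the clock-associated list and of the constant-level list; filled points passed an adjusted p of 0.05. In that list GI passed, at 1.12, and CDF5, at −1.01, is the lowest point without passing.

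Genes that often serve as references of constant level gave a scale for these differences. TIP41, SAND, UBC21 and EXP4, the 4 tested, had log2 differences from −0.03 to 0.06. With each array centred on these 4 genes, GI stood at 1.11 (adjusted p = 0.0076, limma) and CDF5 at −1.01 (adjusted p = 0.116, limma).

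Of 30 clock-associated genes listed beside GI, 8 were tested, 2 rose and 1 fell. Over all tested probe sets, 2.73% passed as higher and 2.84% as lower. The list was chosen with earlier results of these data known, so these counts do not show whether clock genes change more often. COR27 and COR28, cold-responsive repressors under clock control, rose. COR27 had 1318 and 1007 in lwd1lwd2, against 70.4 and 56.4 in wild type, and COR28 had 458 and 349 against 14.9 and 55.0. Their wild-type signals all lay below the cutoff of about 91.5, so both were tested only through the mutant arrays and the size of their rise depends on the offset. AFR, which encodes an F-box protein acting in far-red light responses, fell by 1.21 on the log2 scale (adjusted p = 0.0056, limma). The other 5, TIC, XCT, LIP1, RVE5 and RVE6, had log2 differences from −0.20 to 0.51. With 1 harvest window, an earlier or later daily peak of GI or CDF5 and a change in level at every hour cannot be told apart.

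Genes next to GI and CDF5 on the chromosome were also read, a comparison chosen after the values of GI and CDF5 were known. The nearest 3 tested genes on each side of GI, from 2 to 8 loci away, had log2 differences from −0.46 to −0.04, and none passed. The nearest 3 on each side of CDF5, from 2 to 19 loci away, had log2 differences from −0.58 to 0.75. None of them passed either, the lowest adjusted p being 0.119 (limma). The share passing over all tested probe sets was 2.73% higher and 2.84% lower, so no call among 6 neighbours says little. The sign of GI differed from that of all 6 of its neighbours, and CDF5 had neighbours of both signs. The 95% interval of every GI neighbour except AT1G22750 included 0, so most signs around GI are not established.

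The genes of most similar pattern were found by the Euclidean distance between log2 profiles over the 4 arrays, each centred on its wild-type mean, among 7368 tested probe sets with 1 gene. Nearest to GI were AT3G19680 (distance 0.08), AT2G39920 (0.12), AT1G32090 (0.15), AT3G47800 (0.17) and PSF2 (0.17). AT3G19680 had signals of 810 and 782 in lwd1lwd2, against 336 and 370 in wild type. Nearest to CDF5 were AT3G17800 (0.10), AT5G11650 (0.16), AT5G24210 (0.16), AT1G19450 (0.21) and AT2G29320 (0.26). AT3G17800 had 3210 and 1986 in lwd1lwd2, against 4868 and 5538 in wild type. All 5 genes nearest to CDF5 had a lower value in lwd1lwd2 replicate 2 than in replicate 1, which the measure selects for. The distance rests on 4 arrays and on the genotype difference that defines both patterns.

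**Figure D4:**
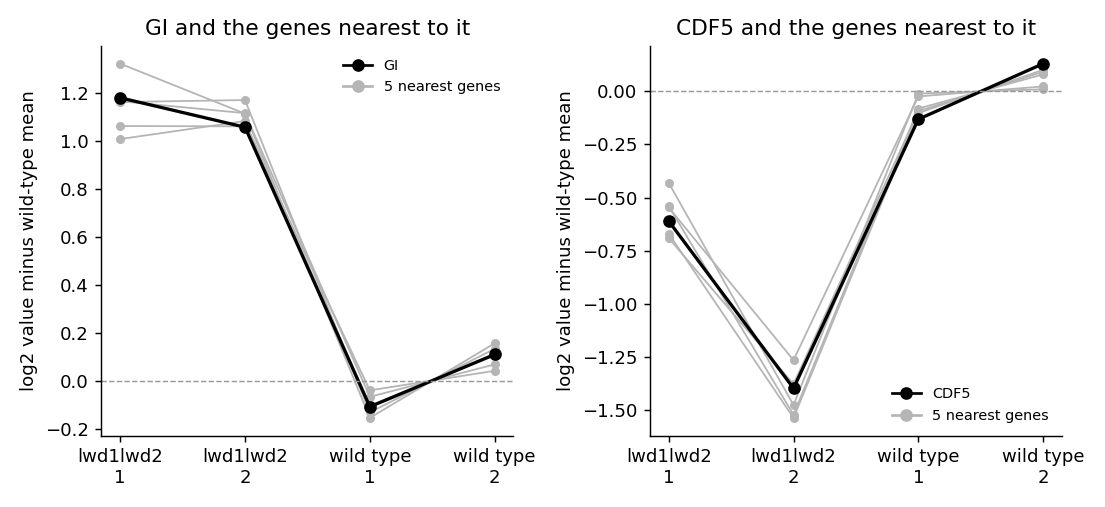
Log2 values on each array minus the gene's own wild-type mean, for GI and CDF5 (black) and the 5 genes nearest to each (grey); lines join the values of 1 gene. The GI group is level across the mutant arrays, and the CDF5 group is lower in lwd1lwd2 replicate 2 than in replicate 1.

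Markers of tissue were read beside these values. Of 33 leaf genes of photosynthesis, 6 were named (LHCB4.1, PSAE1, PSAN, PSBW, PSBY and RCA). Their signals ran from 11348 to 29535 over the 4 arrays, and none passed. All 6 had a negative log2 difference, from −0.31 to −0.07 with a median of −0.22, against 0.05 over all tested probe sets. The genotypes did not overlap for PSAE1, PSBW and RCA. Separation was common on these arrays, with a higher mutant signal for 28.9% of tested probe sets and a lower one for 22.6%. The part of the leaf marker differences in the GI and CDF5 values was not tested. Of 24 flower, anther and seed markers, 3 were named (A9, AMS and SPL), and their summed signal was 378 and 56.3 in lwd1lwd2, against 212 and 40.5 in wild type. It was high in replicate 1 and low in replicate 2 of both genotypes, and its part in the spread of CDF5 between the mutant replicates was not tested. Of 14 root markers, 3 were named (PYK10, EXPA7 and RCH1), with summed signals of 956 and 1453 in lwd1lwd2 against 1133 and 1868 in wild type, most of it from PYK10. Of 10 senescence markers, 3 were named and 2 tested. SAG29 fell, with 62.7 and 46.4 in lwd1lwd2 against 230 and 320 in wild type (adjusted p = 0.0022, limma). Among all tested probe sets, 2.84% passed as lower and 2.73% as higher, so calls on so few markers say little. SAG101 had 131 and 83.9 in lwd1lwd2 against 90.2 and 113 in wild type, which overlap, and WRKY53, too dim to test, had 207 and 90.9 against 31.1 and 59.4, which do not. The 3 senescence markers thus did not share a direction, and their part in the GI and CDF5 values was not tested.

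Both genes kept their direction under every processing choice tried. The GI difference ran from 0.99 to 1.23 and passed each time, with an adjusted p from 0.0023 to 0.0283 (limma). The CDF5 difference ran from −1.40 to −0.61, with an adjusted p from 0.0392 to 0.477 (limma). Since no array of one genotype overlapped the other, leaving out 1 array could not reverse either sign.

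**Figure D5:**
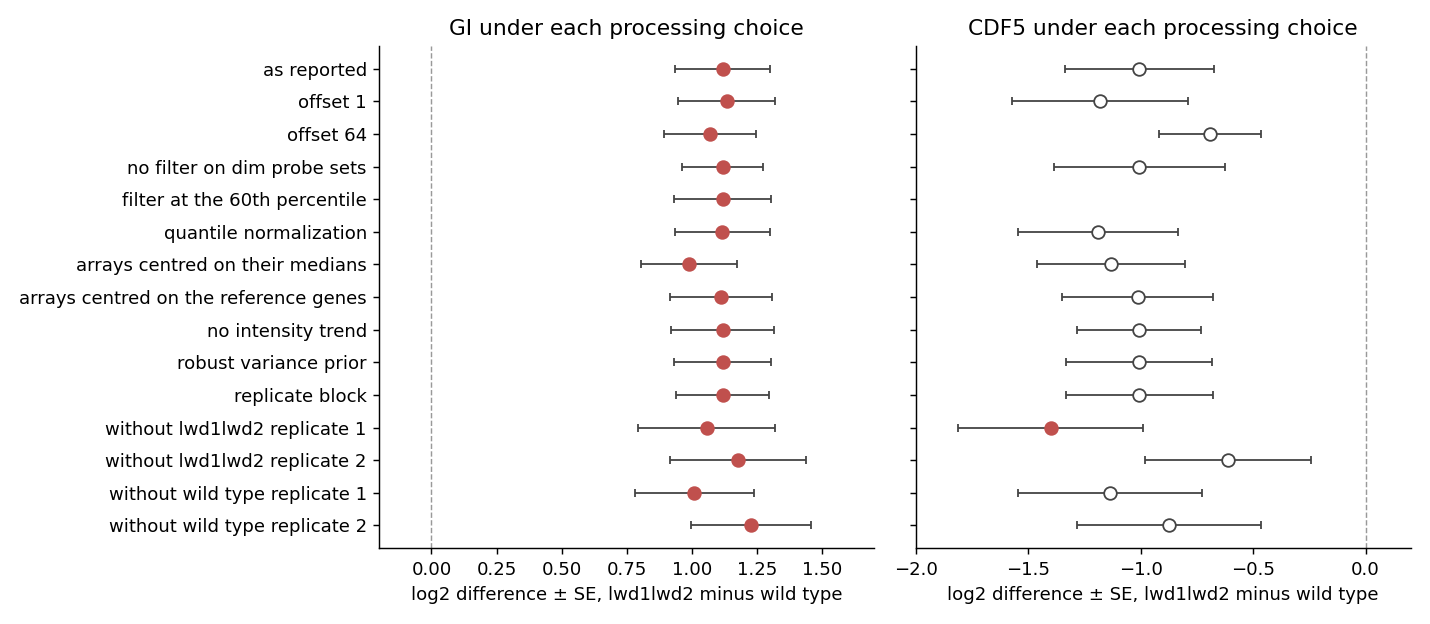
Log2 difference ± SE of GI and CDF5, lwd1lwd2 minus wild type, under each processing choice, with leave-one-out values from the probe sets of the full comparison; filled points passed an adjusted p of 0.05. GI passed throughout, between 0.99 and 1.23; CDF5 passed only without lwd1lwd2 replicate 1, and has no point for the filter at the 60th percentile, which it fell below.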

How the data were processed

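The deposited table gives 1 linear signal intensity per probe set and array (the sources used here name no software for it). After trimming 2% from both ends, the deposited intensity averaged 500.05 on all 4 arrays; they had been scaled to a common mean and a change in total mRNA cannot be seen. Median signals were 181 and 176 in lwd1lwd2 and 163 and 162 in wild type. Values were analysed as log2(signal + 16), which understates changes of dim genes. The 64 control probe sets and the dimmest 40% were left out. Detection calls were not used. The test was limma 3.58.1 in R 4.3.3 (genotype only, intensity trend, two-sided, 2 residual degrees of freedom). Its code was run on simulated data, with independent noise drawn from the spread that limma had fitted. That run checks the code and cannot show whether these arrays meet the test's assumptions. The number of arrays limits precision, and p-values rest on the spread between these arrays together with the spread that limma borrows from other probe sets. RNA was extracted by a pine tree method and labelled with biotin during in vitro transcription (both per the labels' protocols).

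Gene names came from the platform's probe annotation, with symbols brought up to date from the TAIR10.1 gene table. Of 22810 probe sets, 13513 had 1 gene, 503 had several and 8794 were not listed, so most of the pathway is unnamed here. Names that the gene table lacks, CDF4, CDF5, COG1, CDF6, COR28, RVE5, RVE6, TIP41, SAND, EXP4, A9 and RCH1 among them, were assigned by locus. The members and lists were chosen with earlier results of these data known. A list of 27 DOF family genes, found by symbol or synonym, had no member named on the array. It left out CDF4, CDF5, COG1 and CDF6, DOF genes on the array that were assigned by locus. Named genes were GI, CDF5, list members that passed, in the pathway lists the 2 largest differences as well, the tested constant-level genes, and the 5 genes nearest to each member in profile. The other pathway genes, the clock genes that did not pass, the markers and the neighbours were named after their values were seen, for completeness. Alternatives were the offset, the filter, the scaling, the variance prior, a replicate block and leaving out each array. Figures were drawn with matplotlib 3.10.9.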

Additional observations from a re-analysis of the deposited data

How the results depend on the processing

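GI passed in all 18 alternatives. CDF5 gave a value in 15, kept its direction in each, and passed only without lwd1lwd2 replicate 1 (−1.40, adjusted p = 0.0392, limma, or 0.0415 with the probe sets of the full comparison, an alternative chosen after seeing the data). Over the alternatives that leave out 1 array CDF5 ran from −1.40 to −0.61. It fell below the filter at the 60th percentile and without either wild-type array. With the probe sets of the full comparison leaving out wild-type replicate 1 gave −1.14 (adjusted p = 0.101, limma) and leaving out wild-type replicate 2 gave −0.87 (adjusted p = 0.289, limma). When a mutant array is left out, a gene's own spread comes from the wild-type arrays alone. To it limma adds the spread that it borrows from other probe sets. The lone mutant array is assumed to vary like the wild-type ones, so the wide gap between the mutant arrays of CDF5 no longer counts.

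Same-numbered arrays deviated together only weakly (r = 0.09 over 13647 probe sets, 2 pairs), so the numbers were not taken to pair the samples. The summed flower, anther and seed markers did split by number in both genotypes (378 and 56.3 in lwd1lwd2, 212 and 40.5 in wild type). Whether a factor shared by number reached GI or CDF5 was not tested. With the replicate block GI stood at 1.12 (adjusted p = 0.0134, limma) and CDF5 at −1.01 (adjusted p = 0.130, limma). The block changed no call on either gene.

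Over all probe sets, 372 passed as higher and 388 as lower. Without the filter 114 and 144 passed; the cause was not tested. Leaving out 1 array gave 290 to 607 higher, the highest without wild-type replicate 1, or 307 to 600 with the probe sets of the full comparison, and 271 to 488 lower. Median centring gave 572 lower and 257 higher calls. It shifted the difference of every tested probe set, GI and CDF5 included, by the same −0.13, so their places among the probe sets could not change. The pathway count was 1 higher in every alternative, and 0 lower except without lwd1lwd2 replicate 1, where CDF5 made it 1. The rule of at least 2-fold with no overlap was met by 2 of the 2 genes as reported, and by 1 with an offset of 64 or with median centring. Leaving out 1 array gave 1 to 2. The exact permutation p was 0.333 under every scaling and offset. CDF5 lay 0.06 above the filter cutoff on the log2 scale and GI 3.37, and signal over background was not measured here.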
